A study of Mus musculus with 12 samples.

Results

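The inflammatory CC chemokines are small secreted proteins that draw leukocytes into tissue. The 9 mouse members Ccl2, Ccl3, Ccl4, Ccl5, Ccl6, Ccl7, Ccl8, Ccl9 and Ccl12 were taken by name, through the RefSeq accession of each probe, from 17009 genes named on the array. All 9 were measured, with 10 probes, since Ccl7 has 2. Every member was well above background on all 12 arrays, so none depended on a filter for dim signal. The chips were 1-colour Agilent mouse arrays, each hybridised with lung RNA of a separate FVB/N mouse (the strain field reads FVB/NJ) that was 7 weeks old at the start and labelled female. LPS/NNK mice (arrays 2, 3 and 6) had both LPS, the endotoxin of Gram-negative bacteria, and NNK, a nitrosamine carcinogen of tobacco smoke. LPS mice (arrays 1, 5 and 6) had weekly nasal doses of 5 ug over 16 weeks. NNK mice (arrays 2, 3 and 5) had 3 mg into the peritoneum, repeated during the first 4 weeks. PBS mice (arrays 1, 2 and 3) had weekly PBS for 16 weeks. Lungs were taken 1 week after the last treatment. The labels name neither a vehicle for the NNK injections nor a PBS instillation for NNK mice.

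Chemokines of this family bind receptors on leukocytes and guide them along a gradient. Ccl2, Ccl7 and Ccl12 act on Ccr2, which brings monocytes out of the blood, while mouse Ccl8 acts mainly on Ccr8. Ccl3, Ccl4 and Ccl5 attract T cells, natural killer cells and macrophages, and Ccl3 and Ccl5 bind Ccr1. Ccl6 and Ccl9 are rodent ligands of Ccr1 that macrophages and other myeloid cells make without a strong stimulus. Recognition of LPS by Tlr4 and Cd14 induces several of these genes through NF-kB and through interferons.

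All members lie on chromosome 11, in 2 groups of neighbours. Among protein-coding genes the order is Ccl2, Ccl7, Ccl11, Ccl12 and Ccl8, with no other gene between them, and further along Ccl5, Ccl9, Ccl6, Ccl3 and Ccl4. Promoters of 5 of the 9 members (Ccl3, Ccl6, Ccl8, Ccl9 and Ccl12) were in the RefSeq promoter table of build GRCm38.p6, each from 250 bases before to 50 after the start of the gene. The promoters of Ccl8 and Ccl12 are printed because these neighbours were called in both comparisons of an LPS-treated group with PBS. Capitals mark matches to the motifs searched. Ccl8 is at chr11:82114935-82115234 and Ccl12 at chr11:82101595-82101894, both on the plus strand.
Ccl8: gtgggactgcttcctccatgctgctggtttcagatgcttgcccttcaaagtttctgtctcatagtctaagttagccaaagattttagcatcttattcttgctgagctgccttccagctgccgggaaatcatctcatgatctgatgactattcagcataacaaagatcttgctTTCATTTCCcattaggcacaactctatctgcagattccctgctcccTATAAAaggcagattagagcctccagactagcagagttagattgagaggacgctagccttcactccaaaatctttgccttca
Ccl12: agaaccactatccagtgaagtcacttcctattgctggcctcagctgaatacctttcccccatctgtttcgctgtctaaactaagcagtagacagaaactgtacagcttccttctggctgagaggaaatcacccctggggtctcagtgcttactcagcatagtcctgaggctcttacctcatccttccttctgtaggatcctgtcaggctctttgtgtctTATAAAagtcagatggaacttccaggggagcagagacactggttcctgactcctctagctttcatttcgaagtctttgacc
In a global alignment, these promoters were identical at 159 of 300 positions (53.0%), against 36.3% to 49.3% for the other pairs among the 5 promoters. The patterns searched on both strands were GGAANNGAA (EICE, a composite element of PU.1 and interferon regulatory factors), GAAANNGAA (ISRE), TTCNNNGAA (GAS), GGGNNTTTC (kB), TGANTCA (AP-1) and the TATA box, where N is any base. They were picked with these promoters in view, and EICE, ISRE and kB were also searched in a form 1 letter longer, which was the first form tried. EICE and ISRE can match overlapping letters. The TATA box was searched as TATAAA. Ccl8 held an EICE match on the minus strand with its left end at base -78 and TATAAA at base -32, and Ccl12 held TATAAA at base -31. Of 32851 mouse promoters of the same length, 8.24% hold the EICE letters and 13.6% hold TATAAA. Ccl9 held matches to TATAAA on both strands, AP-1 (7.81% of promoters) and kB (4.36%). Ccl3 held an ISRE match (8.56% of promoters), and Ccl6 held none of the 6 patterns, with GAS found in 8.3% of promoters. In the longer form, found in 2.72% of promoters for EICE, 1.63% for kB and 3.44% for ISRE, the Ccl8 and Ccl9 matches were also present and the Ccl3 match was not.

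Levels are log2 signals relative to the array's own 75th percentile of signal, so a value of 0 means a spot as bright as that percentile. The PBS arrays stood apart as a group before any gene was considered. The share of spots well above background was 70.2% to 73.1%, against 55.6% to 67.5% on treated arrays, and their correlation with treated arrays was 0.878 to 0.933, against 0.942 to 0.990 among treated arrays. Their 75th percentile was 745 to 1062 intensity units, against 203 to 554, while the median of the spike-in controls was lower (9.05 to 10.1, against 10.5 to 11.4, log2 intensity). On PBS 1 and PBS 2 the Y-linked Ddx3y, Eif2s3y, Kdm5d and Uty were well above background and Xist was not, although all mice are labelled female. Lung identity was plain on every array, with 12 of 12 epithelial and endothelial markers above background.

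Within the PBS group array 1 differed from arrays 2 and 3 in the chemokines. For 6 of 9 members (Ccl2, Ccl3, Ccl4, Ccl7, Ccl9 and Ccl12) PBS 1 lay over 1 log2 unit above both other PBS arrays, by 2.19 (Ccl9) to 4.39 (Ccl3), against 284 of 21856 items on the array (1.3%). Of 18 signals known to induce these genes, PBS 1 was above both other PBS arrays for 13, by over 1 log2 unit for 7, and below both for 1. That list also holds Nfkbia, Tnfaip3 and Socs3, feedback inhibitors of such signals, and Socs3 was among the 7. Among the 7 were Tnf at -1.47 against -4.31 and -4.03 on PBS 2 and 3, Il6 at -2.29 against -5.95 and -5.68, and Cd14 at 3.08 against 0.93 and 1.31. Comparisons of the members with PBS are therefore given with and without PBS 1. Its high values also widen the spread that the fit shares among groups, so comparisons between treated groups are given again from a fit of the 9 treated arrays, an alternative chosen after the data were seen.

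Ccl8, in mice a ligand of Ccr8, had the clearest response. Its level was 3.52, 4.87 and 4.20 in LPS/NNK lungs, 2.22, 3.82 and 3.19 in LPS lungs, -0.43, -0.0074 and 0.23 in NNK lungs and 0.12, -1.99 and -0.32 in PBS lungs. All 6 arrays with LPS were above all 6 without it, PBS 1 included, and no array of an LPS-treated group overlapped NNK or PBS. The group means were 4.20 ± 0.67, 3.08 ± 0.81, -0.069 ± 0.34 and -0.73 ± 1.12 in LPS/NNK, LPS, NNK and PBS lungs (SD, n = 3 each).

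Ccl12, a mouse ligand of Ccr2 next to Ccl8 on the chromosome, was at -0.78, -0.43 and 0.38 in LPS/NNK lungs, -1.04, -0.41 and 0.63 in LPS lungs, -2.0, -1.91 and -1.62 in NNK lungs and -1.37, -3.83 and -4.32 in PBS lungs. Both LPS-treated groups covered nearly the same range and lay above every NNK and PBS array. NNK lungs lay above PBS 2 and 3 and below PBS 1.

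Ccl2, the main monocyte attractant, was at -1.09, -0.17 and 0.32 in LPS/NNK lungs, -1.73, -0.18 and -0.037 in LPS lungs, -1.56, -1.59 and -1.39 in NNK lungs and 1.54, -2.65 and -2.08 in PBS lungs. The highest of the 12 arrays was PBS 1 and the 2 lowest were the other PBS arrays, and LPS 1 lay below the NNK arrays. Ccl7, its neighbour and a ligand of Ccr1, Ccr2 and Ccr3, was at -2.48, -2.29 and -1.78 in LPS/NNK lungs, -2.50, -2.42 and -1.18 in LPS lungs, -3.86, -3.37 and -3.19 in NNK lungs and -0.43, -4.39 and -4.41 in PBS lungs. NNK arrays were below all LPS-treated arrays, and PBS 1 was again the highest of the 12. The other Ccl7 probe gave similar changes, 1.27 against 1.29 for LPS/NNK minus NNK.

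Ccl4, also called MIP-1 beta, was at 0.91, 1.79 and 3.04 in LPS/NNK lungs, 0.81, 0.71 and 1.34 in LPS lungs, -0.84, -0.93 and -0.96 in NNK lungs and 1.75, -2.44 and -1.67 in PBS lungs. The NNK arrays were tightly grouped below every LPS-treated array, and PBS 1 fell inside the LPS/NNK range. Ccl3, the neighbouring MIP-1 alpha gene, was at -1.16, -0.13 and 0.93 in LPS/NNK lungs, -0.58, -1.62 and -0.41 in LPS lungs, -1.52, -1.58 and -1.25 in NNK lungs and 1.53, -3.19 and -2.86 in PBS lungs. LPS/NNK lungs lay above NNK lungs by a narrow margin at the low end, and LPS 5 was the lowest of the 9 treated arrays. Ccl5, which activated T cells and natural killer cells make, was at 3.05, 4.21 and 3.72 in LPS/NNK lungs, 3.75, 3.20 and 3.00 in LPS lungs, 1.94, 2.73 and 2.44 in NNK lungs and 1.69, 1.11 and 3.16 in PBS lungs. Here the high PBS array was PBS 3, not PBS 1.

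Ccl6, a myeloid product, was at 5.61, 5.68 and 5.90 in LPS/NNK lungs, 6.14, 6.34 and 6.60 in LPS lungs, 5.78, 5.56 and 5.68 in NNK lungs and 5.74, 4.51 and 4.91 in PBS lungs. The 3 LPS arrays were the highest of the 12, and LPS/NNK lungs overlapped NNK lungs. Ccl9 was at 0.88, 0.68 and 1.78 in LPS/NNK lungs, 2.45, 1.45 and 1.10 in LPS lungs, 0.90, 0.58 and 0.59 in NNK lungs and 2.88, 0.40 and 0.68 in PBS lungs. LPS lungs lay above NNK lungs, and LPS/NNK lungs did not.

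**Figure D1:**
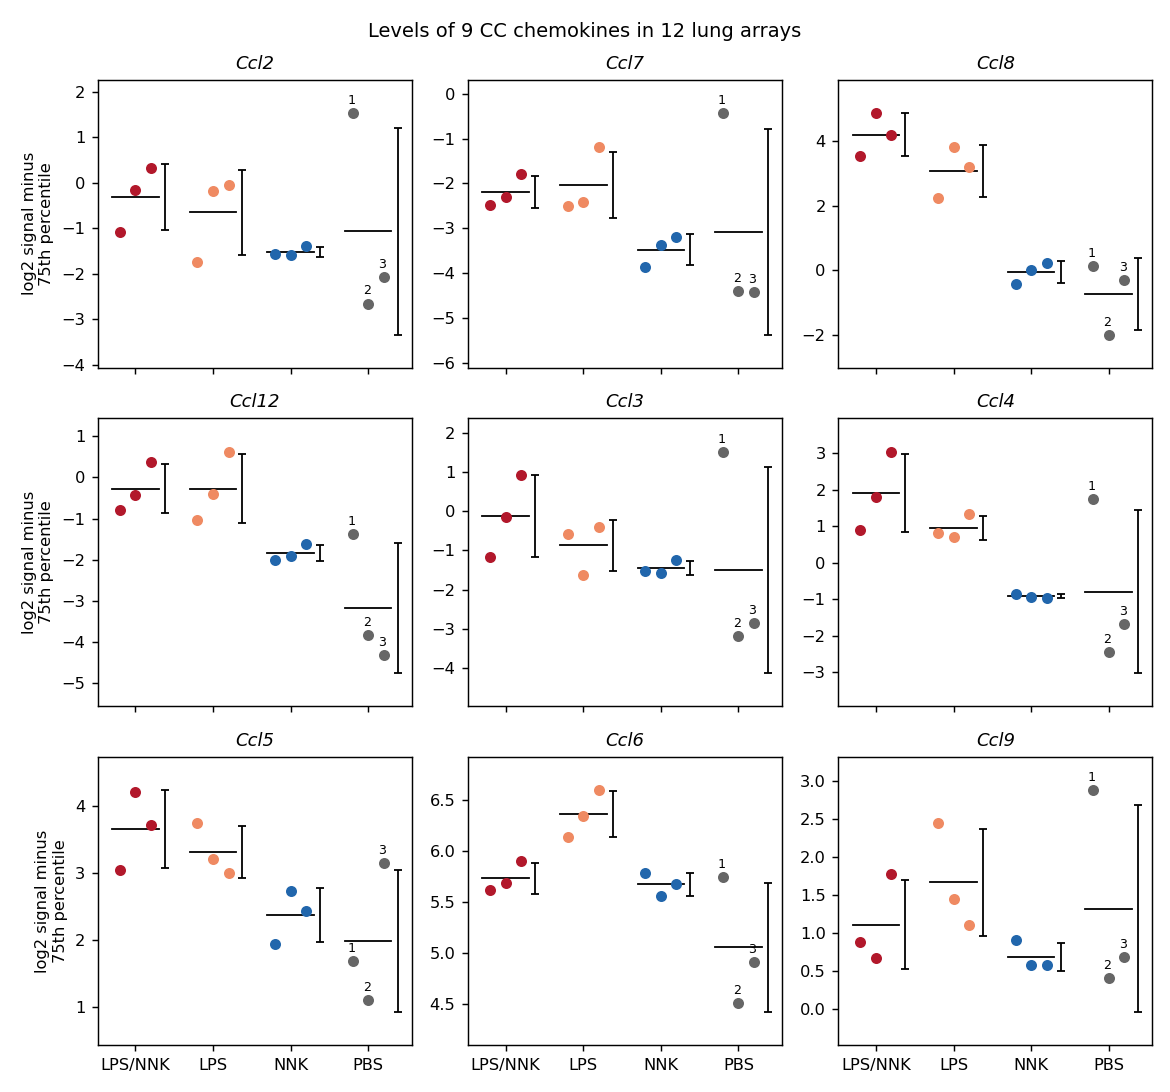
Level of each of the 9 CC chemokines (log2 signal minus the 75th percentile of the array) on the 3 arrays of each group; points are arrays, short lines are group means, bars beside them are 1 SD, and numbers mark the PBS arrays. Ccl8 is high on all 6 arrays with LPS, and PBS 1 is the highest of the 12 arrays for Ccl2, Ccl3, Ccl7 and Ccl9.

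LPS/NNK against NNK compares lungs with and without weekly LPS in mice given the carcinogen. NNK was given over 4 weeks and LPS over 16, and lungs were taken 1 week after the last treatment. Age at killing, time since NNK and instillation may therefore differ along with LPS, here and in other comparisons that use NNK lungs. Of the 9 members 2 rose, Ccl8 by 4.26 (SE 0.53, limma adjusted p = 0.000341, a fold change of 19.2) and Ccl4 by 2.83 (SE 0.81, adjusted p = 0.0301). Over all 21856 items 7.8% were called higher, and 17.6% in either direction. For 7 of 9 members, all but Ccl6 and Ccl9, every LPS/NNK array was above every NNK array. Of all items 36.3% had no overlap, whichever group was higher. The number of items called in either direction was 3850, but 5860 without LPS/NNK 2 and 1646 to 2057 without any 1 of LPS/NNK 3, LPS/NNK 6, NNK 2 or NNK 3. The other 5 of those members had differences of 1.20 (Ccl2, SE 0.83) to 1.57 (Ccl12, SE 0.63) and adjusted p-values of 0.0687 (Ccl5) to 0.346 (Ccl3). Of these, Ccl5 was called with the slide as a random block (1.35, SE 0.44, adjusted p = 0.0401), with the replicate block (adjusted p = 0.0275), over the items above background on all 12 arrays (adjusted p = 0.0490) and without LPS/NNK 2 (1.59, adjusted p = 0.0330). The median difference of the 9 members was 1.29, and that of all items -0.077.

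When only the 9 treated arrays were fitted, 5 of 9 members rose, Ccl8, Ccl4, Ccl12, Ccl5 and Ccl7, with 6.2% of all items called higher. Ccl12 then had an adjusted p of 0.0316, Ccl5 of 0.0341 and Ccl7 of 0.0433 by limma. Over the alternatives Ccl12, Ccl5 and Ccl7 had differences as low as 0.72, 1.01 and 0.088. Their highest limma adjusted p-values were 0.665, 0.232 and 0.937. Ccl8 was called in every alternative of this comparison. Ccl4 was not called after normexp background correction or quantile normalisation, nor without any of LPS/NNK 3, LPS/NNK 6, NNK 2, NNK 3 and NNK 5. On the 2 slides that held an array of each group the Ccl8 difference was 3.53 and 4.63 and the Ccl4 difference 1.84 and 2.75, which are single pairs of arrays.

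LPS against NNK gave a like pattern with fewer calls. Ccl8 rose by 3.15 (SE 0.53, limma adjusted p = 0.00333) as the 1 member called, where 2.72% of all items were called higher and 6.41% in either direction. In either direction 1400 items were called, against 2242 without LPS 6 and 625 to 907 without any 1 of LPS 1, NNK 2, NNK 3 or NNK 5. The arrays did not overlap for 7 of 9 members, all but Ccl2 and Ccl3, against 24.8% of all items. Ccl4 differed by 1.86 (SE 0.81, adjusted p = 0.208) and Ccl12 by 1.57 (SE 0.63, adjusted p = 0.17). From the 9 treated arrays alone Ccl8, Ccl4 and Ccl7 were called, with 2.53% of all items called higher, and Ccl12 was not (adjusted p = 0.0531). These groups share the NNK arrays with the comparison before, so the 2 patterns are not independent. No LPS array shared a slide with another group, so no within-slide value exists.

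LPS/NNK against LPS asks what the carcinogen added to LPS, and none of the 9 members was called, with 4.19% of all items called. That share, 915 items, depended on single arrays: it was 4791 items without LPS/NNK 2, 79 without LPS/NNK 3, 110 without LPS/NNK 6, 304 without LPS 1, 356 without LPS 5 and 583 without LPS 6. No member was called when any 1 of these 6 arrays was left out. Ccl6 was lower in LPS/NNK lungs on every array, by a difference of -0.63 (95% interval -1.25 to -0.0046, limma adjusted p = 0.193), the 1 member whose arrays did not overlap, against 20.9% of all items. Ccl8 differed by 1.12 (95% interval -0.023 to 2.25, adjusted p = 0.203). At an unadjusted p under 0.05 only Ccl6 passed (0.0485). The interval for Ccl12, -1.35 to 1.35 around -0.0028, leaves room for a change of more than 2-fold either way.

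**Figure D2:**
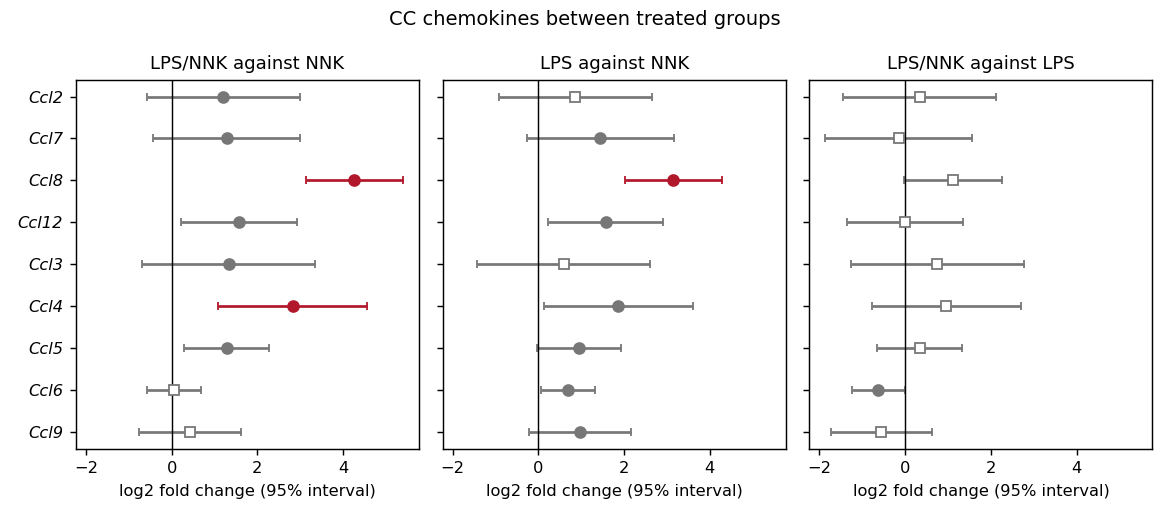
Difference in log2 level of the 9 members between treated groups, with 95% intervals from the fit of all 12 arrays. Red marks adjusted p under 0.05, filled circles mark groups whose arrays did not overlap, and open squares mark overlap; Ccl8 is called in both comparisons with NNK and Ccl4 in LPS/NNK against NNK.

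Against PBS, 4 of 9 members rose in LPS lungs: Ccl8 by 3.81 (SE 0.53, limma adjusted p = 0.000109), Ccl12 by 2.90 (SE 0.63, adjusted p = 0.00183), Ccl5 by 1.34 (SE 0.46, adjusted p = 0.0244) and Ccl6 by 1.31 (SE 0.29, adjusted p = 0.00215). In this comparison 25.1% of all items were called higher and 56.1% in either direction. The arrays did not overlap for Ccl6, Ccl8 and Ccl12, 3 of 9, against 62.7% of all items. In LPS/NNK lungs 4 members rose against PBS, Ccl8 by 4.92 (SE 0.53, adjusted p = 1.49e-05), Ccl12 by 2.90 (SE 0.63, adjusted p = 0.0017), Ccl4 by 2.70 (SE 0.81, adjusted p = 0.0122) and Ccl5 by 1.67 (SE 0.46, adjusted p = 0.00757), where 27% of all items were called higher and 55.4% in either direction. Ccl8 and Ccl12 were the 2 members without overlap there, against 62.3% of all items. In NNK lungs 0 of 9 were called against PBS by limma, 0 at an unadjusted p under 0.05 and 0 of 9 without overlap, where 51.9% of all items were called and 67.5% did not overlap. With the slide as a random or as a fixed block, Ccl12 was called there, 1 of 9, with 11855 and 6688 of 21856 items called.

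Leaving out PBS 1 moved these counts more than any other single array did. PBS 1 was singled out by the levels of these same members, so the added calls are no separate support for a rise. In LPS lungs 8 of 9 members then rose against PBS 2 and 3, all but Ccl5, with 21.5% of all items called higher. Ccl4 rose by 3.01 (SE 0.49, limma adjusted p = 0.000634), Ccl7 by 2.36 (SE 0.40, adjusted p = 0.000762), Ccl3 by 2.15 (SE 0.51, adjusted p = 0.00489), Ccl2 by 1.71 (SE 0.50, adjusted p = 0.014) and Ccl9 by 1.12 (SE 0.41, adjusted p = 0.0395), with Ccl5 at 1.19 (SE 0.53, adjusted p = 0.0788). In LPS/NNK lungs 8 of 9 rose, all but Ccl9, with 24.4% of all items called higher. In NNK lungs 3 of 9 rose, Ccl3, Ccl6 and Ccl12, the last by 2.23 (SE 0.45, adjusted p = 0.00310), with 22.7% of all items called higher.

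With PBS 3 alone as the control, and its spread taken from the other groups, LPS called 6 of 9 members, LPS/NNK 5 and NNK 1, against 12.5%, 16.8% and 12.1% of all items called higher. Ccl5 then differed by 0.16 in LPS lungs (SE 0.50, limma adjusted p = 0.822). Ccl8 and Ccl12 were called for LPS and for LPS/NNK against PBS in every alternative. The Ccl5 calls against PBS were lost after normexp, quantile or cyclic loess, at limma adjusted p-values of 0.0510 to 0.127, and that of LPS also without LPS 1 (1.12, adjusted p = 0.0860) or PBS 2 (0.90, adjusted p = 0.122). The LPS/NNK call of Ccl5 was also lost with PBS 3 alone (0.50, adjusted p = 0.462) and with a fixed slide term (1.15, adjusted p = 0.128). The Ccl6 call of LPS was lost after quantile normalisation (0.55, adjusted p = 0.0867) and cyclic loess (0.35, adjusted p = 0.262). The Ccl4 call of LPS/NNK was lost when only LPS/NNK and PBS arrays were fitted and without LPS/NNK 6, PBS 2 or PBS 3, each alone, at adjusted p-values of 0.0512 to 0.0653.

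**Figure D3:**
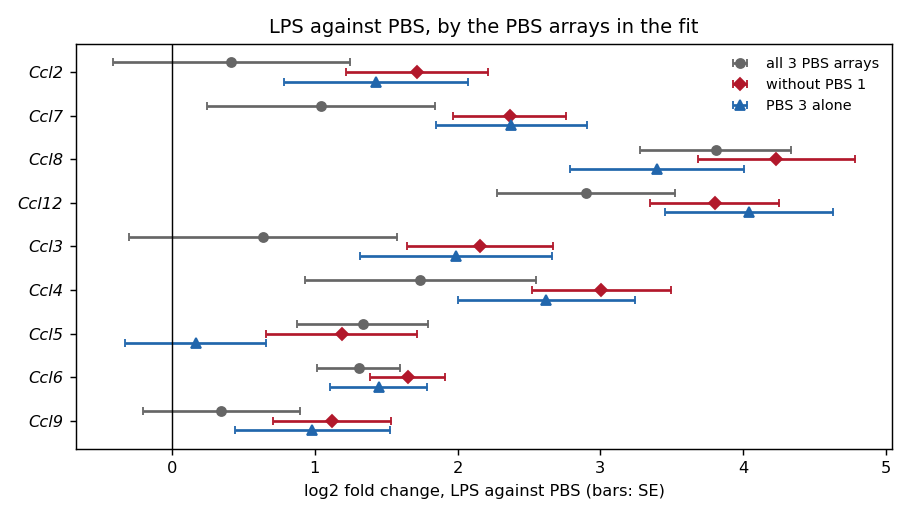
Difference in log2 level, LPS against PBS, for the 9 members with all 3 PBS arrays, without PBS 1, and with PBS 3 alone; bars are SE. Without PBS 1 the values of Ccl2, Ccl3, Ccl4 and Ccl7 are higher by over 1 log2 unit, and Ccl5 falls to 0.16 with PBS 3 alone.

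Whether LPS moved a member by a different amount in mice that also had NNK was tested as an interaction, (LPS/NNK minus NNK) minus (LPS minus PBS). Ccl6 was the 1 member called, at -1.25 (SE 0.41, limma adjusted p = 0.029), where 18.2% of all items were called lower and 39% in either direction. Its LPS effect was 0.060 (SE 0.29) with NNK and 1.31 (SE 0.29) without. The effect without NNK rests on the PBS arrays, which stood apart in signal, with Y-linked genes on PBS 1 and 2. Those differences cannot be told apart from the interaction in this design. The Ccl6 call was lost after normexp (-0.79, limma adjusted p = 0.379), quantile normalisation (-0.74, adjusted p = 0.122) or cyclic loess (-0.48, adjusted p = 0.301), with the replicate block (-1.08, adjusted p = 0.0819) and with PBS 3 as the only control (-1.39, adjusted p = 0.0504). It was also lost without LPS/NNK 3, LPS 5, LPS 6, NNK 2, PBS 2 or PBS 3, each alone, with adjusted p-values of 0.0502 to 0.0760, and the sign was negative each time. For Ccl8 the effects were 4.26 with NNK and 3.81 without, and the interaction of 0.46 (SE 0.75, adjusted p = 0.645) was within error. Without PBS 1 Ccl6 (-1.59, SE 0.35, adjusted p = 0.00896) and Ccl12 were called, both lower, with 14.4% of all items called lower.

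Members varied together to different degrees over the 9 treated arrays. The closest pair was Ccl7 and Ccl12 (Pearson r = 0.973), followed by Ccl4 and Ccl8 (0.897) and Ccl2 and Ccl12 (0.891), while Ccl2 and Ccl9 had 0.098 and Ccl3 and Ccl6 0.155. These arrays share the group means, so r mixes treatment with variation between mice. The named gene most like Ccl8 was Cxcl10, an interferon-induced CXC chemokine (r = 0.995 over 9 arrays and 0.924 over 12), followed by Iigp1 (0.987 and 0.75), an interferon-induced GTPase, and Snx10 (0.987 and 0.585). Cxcl10 was at 2.0, 3.52 and 3.15 in LPS/NNK lungs, 0.90, 2.21 and 1.79 in LPS lungs, -3.0, -2.14 and -2.16 in NNK lungs and 1.49, -4.08 and -3.02 in PBS lungs. On PBS 1 the 2 parted, with Cxcl10 inside the LPS range and Ccl8 near the NNK arrays. Ccl12 was most like Ly75 (0.978 over 9 arrays and 0.920 over 12), Ppp4c (0.972 and 0.616) and Cd44 (0.968 and 0.974). Ccl5 was most like the antigen-presentation genes H2-DMb1 (0.963 and 0.896) and Psme1 (0.955 and 0.893), closely followed by Skp2 (0.953 and 0.504). The genes most like the mean of the members over the 9 treated arrays were Abcb1b (0.967), Tlr7 (0.953), Kif5c (0.950), Best1 (0.949) and Dipk1a (0.948). With the PBS arrays included these fell to 0.131 for Abcb1b, 0.670 for Tlr7, 0.656 for Kif5c, 0.758 for Best1 and 0.562 for Dipk1a.

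Among receptors of the family, 2 of the 10 reported here rose in LPS/NNK against NNK lungs and none fell. Of all items 7.8% were called higher and 17.6% in either direction. Ccr2, the receptor of Ccl2, Ccl7 and Ccl12, was at 0.68, 0.76 and 1.11 in LPS/NNK lungs and -1.95, -1.38 and -1.55 in NNK lungs, and rose by 2.48 (SE 0.26, limma adjusted p = 0.000131). The groups did not overlap. Ccr6, the receptor of Ccl20, rose by 1.26 (SE 0.34, adjusted p = 0.0237). The receptors Ccr1 and Ccr8 did not pass the filter for dim signal and were not tested. PBS lungs had Ccr2 at 0.50, 0.22 and -0.22, above NNK lungs, so the order of groups for Ccr2 is not that of Ccl12.

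Other CC chemokines changed in both directions in LPS/NNK against NNK lungs, where 7.8% of all items were called higher and 17.6% in either direction. Of 7 measured, Ccl19, a Ccr7 ligand of lymphoid tissue, rose by 4.36 (SE 0.41), and Ccl20, a Ccr6 ligand made by epithelium, rose by 3.50 (SE 0.63), although it was above background on 1 of 3 NNK arrays. Ccl24, an attractant of eosinophils, fell by 3.25 (SE 0.40), and was above background on 1 of 3 LPS/NNK arrays. Of 18 signals known to induce these chemokines, 5 rose and none fell: Ifng by 5.20 (SE 0.43), Tnf by 3.1 (SE 0.67), Irf1 by 1.60 (SE 0.26), Irf8 by 1.53 (SE 0.23) and Tlr2 by 1.06 (SE 0.32). Il1b differed by 1.03 (SE 0.60, limma adjusted p = 0.251). Tlr4, the LPS receptor itself, differed by 0.79 (SE 0.45, adjusted p = 0.240). The medians were 0.50 for receptors, 0.032 for other CC chemokines and 0.61 for inducing signals, against -0.077 for all items.

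In LPS against PBS lungs the same lists had 3 receptors of 10 higher and 2 lower, 2 of 7 other CC chemokines higher and 3 lower, and 10 of 18 inducing signals higher and 3 lower. Of all items 25.1% were called higher and 31% lower in this comparison. Ackr1, a decoy receptor of venules, rose by 2.92 (SE 0.34) and Ackr4, a scavenger of Ccl19, fell by 2.17 (SE 0.49). Irf5 rose by 2.67 (SE 0.33) and Irf8 by 2.37 (SE 0.23), while Il1b fell by 2.09 (SE 0.60) and Tlr4 by 1.37 (SE 0.45). Without PBS 1 the lists had 3 of 10 receptors higher and 2 lower, 3 of 7 other CC chemokines higher and 2 lower, and 12 of 18 inducing signals higher and 2 lower, with 21.5% of all items called higher and 26.9% lower. Among the 12 were the feedback inhibitors Nfkbia, Tnfaip3 and Socs3. Ackr1, Ackr4, Irf5 and Irf8 were then at 3.23, -2.25, 2.76 and 2.34, all called. Il1b was at -1.36 (SE 0.52, limma adjusted p = 0.0467), and Tlr4, at -1.32 (SE 0.52, adjusted p = 0.0518), was no longer called.

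**Figure D4:**
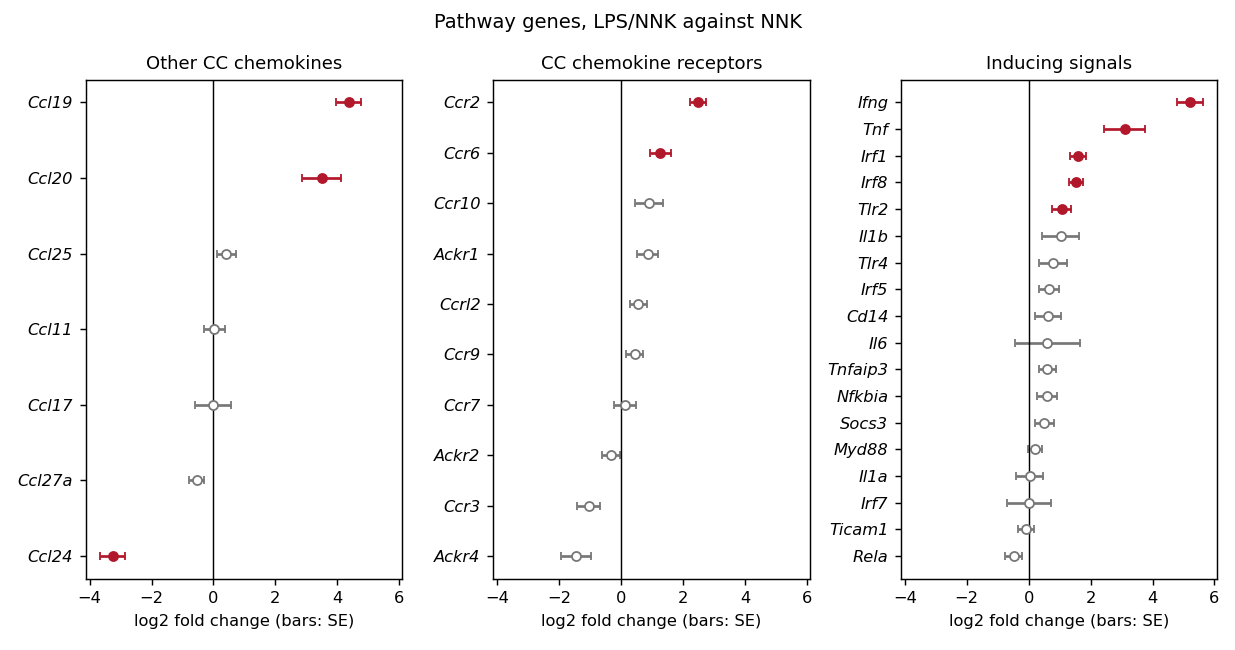
Difference in log2 level, LPS/NNK against NNK, of other CC chemokines, receptors of the family and signals that induce it, with feedback inhibitors among them. Bars are SE and filled red points have adjusted p under 0.05. Ccr2, Ccl19, Ccl20, Ifng and Tnf lie above 2, and Ccl24 lies below -3.

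Markers of monocytes and macrophages, T and natural killer cells and B and plasma cells rose in part in LPS/NNK against NNK lungs, where 7.8% of all items did. In whole lung a larger number of cells of a type and more RNA per cell cannot be told apart. The mean level of 15 monocyte and macrophage markers was 2.43 to 2.69 in LPS/NNK lungs, 2.12 to 2.29 in LPS lungs, 1.15 to 1.21 in NNK lungs and 0.37 to 0.93 in PBS lungs, with no overlap between groups. Their summed level, on the linear scale and relative to the 75th percentile, did overlap, at 561 to 1110 in LPS/NNK lungs, 418 to 606 in LPS lungs, 497 to 716 in NNK lungs and 180 to 329 in PBS lungs. In LPS/NNK against NNK 10 of 15 rose and Cd163 fell, the rises with the smallest p being C1qc (3.49, SE 0.30), Fcgr1 (3.43, SE 0.34) and Ccr2. Cd163 averaged -5.63 in LPS/NNK lungs, a dim level, and -2.82 in NNK lungs, so the size of its fall is uncertain. On each LPS/NNK array 14 of the 15 markers were above background. Of 16 T and natural killer cell markers 8 rose and none fell, with the smallest p for Thy1 (2.81, SE 0.35), Cd6 (2.75, SE 0.35) and Cd5 (2.63, SE 0.33). The summed level of the T and natural killer cell markers was 108 to 189 in LPS/NNK lungs, 73.3 to 94.0 in LPS lungs, 25.0 to 26.9 in NNK lungs and 14.2 to 21.8 in PBS lungs. Their mean level did overlap, at 0.29 to 0.66 in LPS/NNK lungs and -0.090 to 0.73 in LPS lungs. It also overlapped between NNK lungs (-0.67 to -0.45) and PBS lungs (-0.82 to -0.15).

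B and plasma cell markers rose in 4 of 9 (Jchain by 3.98, SE 0.48), with summed levels of 90.0 to 105 in LPS/NNK lungs, 112 to 156 in LPS lungs, 36.4 to 43.8 in NNK lungs and 17.9 to 29.9 in PBS lungs. Their mean level overlapped between LPS/NNK lungs (0.97 to 1.40) and LPS lungs (1.34 to 1.90). It was 0.15 to 0.31 in NNK lungs and -0.72 to 0.099 in PBS lungs. Alveolar macrophage markers rose in 3 of 10 (Chil3, Marco and Pparg), and their mean level overlapped between LPS/NNK and PBS lungs (2.55 to 3.23 and 2.57 to 2.98). Neutrophil markers rose in 2 of 12 (Il1r2 and Camp) and fell in 1 (Retnlg), with overlapping summed levels in all 4 groups. The 6 mast cell, basophil and eosinophil markers tested differed by -1.05 to 0.12, none of them called. Of 12 epithelial and endothelial markers 2 fell, Sftpb of alveolar type 2 cells by 1.71 (SE 0.34) and Scgb1a1 of club cells by 1.43 (SE 0.29). Markers of blood, heart, fat and thymus fell in 4 of 13, Ckm and Myl4 of muscle by 2.0 and 2.06 among them. The part of these cell types in the chemokine differences was not tested.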

How the data were processed

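The deposited scanner output is an intensity per spot, made with Agilent Feature Extraction 10.7 per the submitters' processing notes; marks for background, outliers and saturation come from the same deposited files, and no spot was saturated. The deposited value table, in log2, equalled the log2 mean signal of the probes minus a constant per array, within 8.87e-05; its own centring is not stated. Flags and values of all 12 arrays were used, 3 per group. The number of arrays limits the precision.

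Spots marked as outliers (39 to 99 on an array) were dropped, the rest averaged per probe, and log2 of the processed signal was set relative to the array's 75th percentile. Names came from RefSeq accessions (24355 of 41137 probes). A probe was kept if all arrays of some group had it well above background, the brightest probe stood for its gene, and all 12 arrays entered 1 fit in limma 3.58.1 (R 4.3.3, lmFit and eBayes, 8 residual and 5.45 prior degrees of freedom) with Benjamini-Hochberg adjustment over 21856 items per comparison, called under 0.05, 2-sided. An exact permutation test of 3 arrays against 3 cannot go below 0.1. Mice were separate per the labels, with no batch named. The test was checked on simulated data.

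Alternatives were the background correction, normalization, filter, probe rule, slide, replicate number, samples fitted and each array left out. Normexp used the median signals, since these files hold no mean signal column. The samples sharing a number were not treated as paired in the main fit. Deviations of same-numbered arrays correlated from -0.15 to 0.41, and those of other arrays from -0.41 to 0.34. These ranges overlap and cannot settle whether the number marks a batch. Slides 5 to 8 held 2 groups each and the LPS arrays and PBS 2 lay alone; position on the slide followed the group. Named were all members, up to 5 genes per pathway list and 3 per marker list with the smallest p, and the genes most alike by Pearson r; Cd14, Il1b, Il6, Tlr2, Tlr4 and the sex-linked genes were named after their values were seen. The members and lists were chosen with earlier results of these data known. Sequences are RefSeq's; figures were drawn with matplotlib 3.10.9. For the pathway lists, 2 genes are not reported here and are left out of the lists' counts and medians.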

Additional observations from a re-analysis of the deposited data

Results flagged for a closer look

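The effect of LPS on Ccl6 differed between mice with and without NNK by the interaction test. Its value was -1.25 on the log2 scale (limma adjusted p = 0.029), from an LPS effect of 0.060 with NNK and 1.31 without. Of all items 39% were called in the interaction. The call was lost in 11 of 22 alternatives, as given with the interaction above. Among these were normexp, quantile and cyclic loess values, the replicate block, and leaving out any 1 of 6 arrays.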

How the results depend on the processing

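Ccl8 kept its calls in both comparisons with NNK and for LPS and LPS/NNK against PBS under every alternative, and Ccl12 kept its calls for LPS and LPS/NNK against PBS. With single arrays left out, members called ranged from 3 to 8 for LPS against PBS, 0 to 3 for NNK against PBS, 3 to 8 for LPS/NNK against PBS, 1 to 3 for LPS/NNK against NNK, 0 to 2 for the interaction, and stayed at 0 for LPS/NNK against LPS and 1 for LPS against NNK; the high ends in the comparisons with PBS are without PBS 1. Of 21856 items, with 1 array left out, 10286 to 11654 were called for LPS against PBS and 8723 to 10334 for NNK against PBS. The range was 10216 to 11900 for LPS/NNK against PBS, 1646 to 5860 for LPS/NNK against NNK and 6250 to 10024 for the interaction. It was 79 to 4791 for LPS/NNK against LPS and 625 to 2242 for LPS against NNK. Normexp gave 1 call in NNK against PBS and in LPS/NNK against NNK and 0 in the interaction, with 8040, 353 and 203 items called. Quantile normalisation gave 2 in LPS against PBS, 1 in LPS/NNK against NNK and 0 in the interaction, with 12387, 3610 and 8880 items called. Cyclic loess gave 2 in LPS against PBS and 0 in the interaction, with 12217 and 8816 items called. The slide as a random block or as a fixed effect gave 1 in NNK against PBS, with 11855 and 6688 items called. Fits of only the groups compared or only the treated arrays gave 5 in LPS/NNK against NNK, with 3021 and 2870 items called. In LPS against NNK these fits gave 3, with 1293 and 1112 items called. The replicate block gave 1 call in NNK against PBS, 1 in LPS/NNK against LPS (Ccl3) and 0 in the interaction. The items called were 11237, 1918 and 8711, and arrays in a block share only a number.

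A sign turned in 90 of 1143 values of members under an alternative, 26 of them in the interaction, 25 in NNK against PBS and 11 in LPS/NNK against LPS, and none of the 90 was called before or after. Those of differences printed or plotted follow, and 43 others were in NNK against PBS and the interaction. After normexp Ccl7 was -0.051 in LPS against NNK and 0.14 in LPS/NNK against LPS. Quantile normalisation and cyclic loess gave Ccl6 -0.28 and -0.49 in LPS/NNK against PBS, -0.087 and -0.36 in NNK against PBS and -0.19 and -0.13 in LPS/NNK against NNK. Ccl12 in LPS/NNK against LPS was 0.00086 (quantile), 0.0028 (deposited table) and 0.76 (replicate block). The slide as a random block gave Ccl6 -0.00072 in LPS/NNK against NNK, and a fixed slide term gave Ccl6 -0.12 and Ccl9 -0.11 there, Ccl8 -0.073 in NNK against PBS, and Ccl2 -0.18 and Ccl7 -0.23 in LPS/NNK against PBS. The replicate block gave Ccl2 -0.63, Ccl3 -0.41 and Ccl9 -0.037 in LPS against PBS, Ccl9 0.24 in LPS/NNK against PBS, Ccl6 -0.023 in LPS/NNK against NNK, Ccl7 0.93 and Ccl9 0.27 in LPS/NNK against LPS, and Ccl2 -0.36 and Ccl3 -1.24 in LPS against NNK. With PBS 3 alone Ccl9 was 0.0057 in NNK and 0.43 in LPS/NNK against PBS. With single arrays left out, LPS against PBS ranged from -0.38 to 1.71 (Ccl2), -0.21 to 2.15 (Ccl3) and -0.12 to 1.12 (Ccl9), NNK against PBS from -0.79 to 1.57 (Ccl3) and -1.09 to 0.14 (Ccl9), LPS/NNK against PBS from -0.041 to 2.05 (Ccl2) and -0.67 to 0.57 (Ccl9), LPS/NNK against LPS from -0.20 to 0.73 (Ccl2), -0.39 to 0.28 (Ccl7) and -0.38 to 0.45 (Ccl12), and LPS/NNK against NNK from -0.024 to 0.12 (Ccl6). The causes were not tested.

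The number of items called in LPS/NNK against LPS, 915, became 0 by limma after normexp (1551 items at an unadjusted p under 0.05), 350 with no filter, 39 with only these groups, 465 with only treated arrays and 1918 with the replicate block. That in the interaction, 8534, became 203 after normexp, 13222 with no filter and 2696 with PBS 3 alone. With no filter, LPS, NNK and LPS/NNK against PBS had 19403, 17545 and 18557 items, against 12262, 11344 and 12108, and with PBS 3 alone 5837, 4289 and 6726. NNK against PBS had 6688 with the slide fixed, and LPS against NNK 819, against 1400, over items above background on all arrays. Normexp moved the median of all items to between -0.40 and 0.57, and called 326 items higher and 27 lower in LPS/NNK against NNK, against 1704 and 2146. For LPS against NNK it called 184 higher and 25 lower, against 594 and 806, for LPS against PBS 2601 and 1615, against 5478 and 6784, for LPS/NNK against PBS 4415 and 1314, against 5894 and 6214, and for NNK against PBS 6622 and 1418, against 5958 and 5386. Cyclic loess called 694 and 472 for LPS against NNK. Signal over background limited the receptors Ccr1 and Ccr8, which were not tested.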
